A study of Mus musculus with 8 samples.

Results

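RAW264 cells lacking Gpr137b were compared with wildtype (WT) RAW264 cells after IL-4 treatment, on the 4 of 8 mouse Clariom S arrays that carried RNA of IL-4-treated cells. RAW264 is a mouse macrophage cell line. Its Gpr137b-WT (Gpr137b +/+) clones, called WT1 and WT2, and its Gpr137b-knockout clones, called KO1 and KO2, were all established in a CRISPR/Cas9 procedure, and each clone gave 1 array after 48 h with IL-4 and 1 after 48 h without it. For IL-4 treatment the medium was changed to one that lacked serum and held albumin, and it was not stated whether the cells without IL-4 had this change. Each KO clone was set against each WT clone, which gives 4 clone pairings, and the results keep to genes that differed in the same direction in all 4. This held for 7375 of 22206 probe sets. Because each genotype was 2 clones, an effect of the genotype and a lasting difference between the clones cannot be told apart.

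Gpr137b encodes a multi-pass protein of the lysosomal membrane that is known to act on the Rag GTPases, which bring the growth-regulating kinase complex mTORC1 to the lysosome. IL-4 is a cytokine of allergic and anti-parasite responses that drives macrophages to alternative (M2) activation through the transcription factor Stat6. Macrophages so activated take up and digest material in lysosomes, remodel the matrix, release chemokines and make lipid mediators.

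Values are log2 signals of the normalized arrays, so that a difference of 1 is a 2-fold difference. The background of an array was set from its 23 antigenomic control probe sets, at their 95th percentile, and lay between 6.64 and 6.78 on the 8 arrays. Of all probe sets, 42.8% to 43.8% were above it. Of 9 measured macrophage markers 7 were above background on all 4 IL-4 arrays, and the transcription factor gene Spi1 lay between 18.09 and 18.20. Of 34 measured markers of 8 other cell types, the integrin gene Itgax was above background on all 4 arrays and S100a8 and Mpo on at least 1. Their median was 4.75 to 4.88, and their summed signal was 11.39 in WT1 and 10.20 to 10.33 in the other clones on the log2 scale, where Itgax read 10.64 in WT1 and 6.86 to 7.19 in the others. The WT clones lay farther apart than the KO clones, with a median gap of 0.33 against 0.18 over the 8982 probe sets above background on all 4 arrays. Genes of chromosome 14 had a median KO minus WT difference of −0.36 over 276 genes, against −0.10 to 0.07 on the other chromosomes, and the shift lay with WT1 (−0.63 and −0.69 in its pairings, −0.04 and −0.09 in those of WT2).

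The edited gene was checked first. With IL-4 its probe set read 10.32 and 11.93 in WT1 and WT2 and 10.00 and 10.82 in KO1 and KO2. The genotypes overlapped, since KO2 was brighter than WT1, and the Gpr137b difference of −0.72 turned to 0.09 without WT2. Without IL-4 the probe set read 11.50 and 11.67 in WT1 and WT2 and 10.24 and 11.12 in KO1 and KO2, lower in all 4 pairings by a mean of −0.90 that did not pass (adjusted p = 0.993, limma). The sources used here do not say where the gene was edited, and a signal from outside the edited region is no check of a label. Of its relatives, Gpr137 and the pseudogene Gpr137b-ps were also mixed in direction with IL-4, Gpr137b-ps was lower in all 4 pairings without it (log2 difference −0.89), and with IL-4 Gpr137c was higher in all 4 pairings by as little as 0.01. Probes of Gpr137b and Gpr137b-ps may share signal.

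With IL-4 the KO clones had far more signal than the WT clones for Sod1, an enzyme gene of superoxide removal, and more for the 5-lipoxygenase gene Alox5, the cathepsin gene Ctsh, the myeloid receptor gene Trem3 and the Arf regulator gene Arap2. They had far less for the matrix gene Tnc. These 6 genes and 1 unnamed probe set passed the threshold of limma (adjusted p under 0.05 over all probe sets). Thus 6 probe sets, 0.0270% of those tested, were higher and 1, or 0.00450%, was lower. The fold differences of the named genes ran from 4.09 for Alox5 to 29.8 for Tnc. In bulk RNA, fewer cells that express a gene and less RNA of it in each cell cannot be told apart. The spread was estimated from all 8 arrays, and of the 7 calls Sod1 alone held with the 4 IL-4 arrays. Sod1, Tnc and the unnamed probe set held without the dimmest 40% of probe sets. Arap2, Alox5, Trem3 and Ctsh were still tested there and missed the threshold (adjusted p = 0.0515 to 0.0559, limma). Leaving out a clone leaves its genotype a single array a treatment, and no call held without KO1 (0 probe sets called) or without KO2 (1 called, Amy1), whereas all 7 held without WT1 (143 called) and without WT2 (76 called). The difference without KO1 and without KO2 was 4.23 and 4.51 for Sod1 and −5.10 and −4.69 for Tnc.

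The same direction in all 4 pairings is a weak condition, met by 3975 probe sets as higher (17.9%) and by 3400 as lower (15.3%). Counts over gene lists are to be read against these shares. A stricter set was therefore described, of probe sets at least 2-fold apart in every pairing with the brighter genotype above background on both arrays. It held 42 higher probe sets (0.189%) and 19 lower ones (0.0856%), and all 7 called probe sets were among these 61. Of the 61, 56 have a gene symbol. These were chosen by the values compared, so their size is a description. Where the dimmer genotype was above background on at least 1 array, the KO minus WT difference was 1.20 to 4.37 in 33 higher probe sets and −4.90 to −1.21 in 17 lower ones, against a median of 0.018 over all probe sets. In the others the fold is a lower bound. Just inside the 2-fold limit were Rhox5, Ptms and an unnamed probe set as higher (smallest pairing differences 1.106, 1.04 and 1.033) and Mapk8, H1f2 and Hbegf as lower (−1.016, −1.012 and −1.004). Just outside were Pilra, St3gal5 and Ppic (0.994, 0.99 and 0.961) and Zmym5, Atp6v0d2 and Svil (−0.988, −0.988 and −0.94). The 56 with a symbol lay on 19 of 20 chromosomes, with at most 7 on one. The 5 unnamed probe sets were not placed on a chromosome here.

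**Figure D1:**
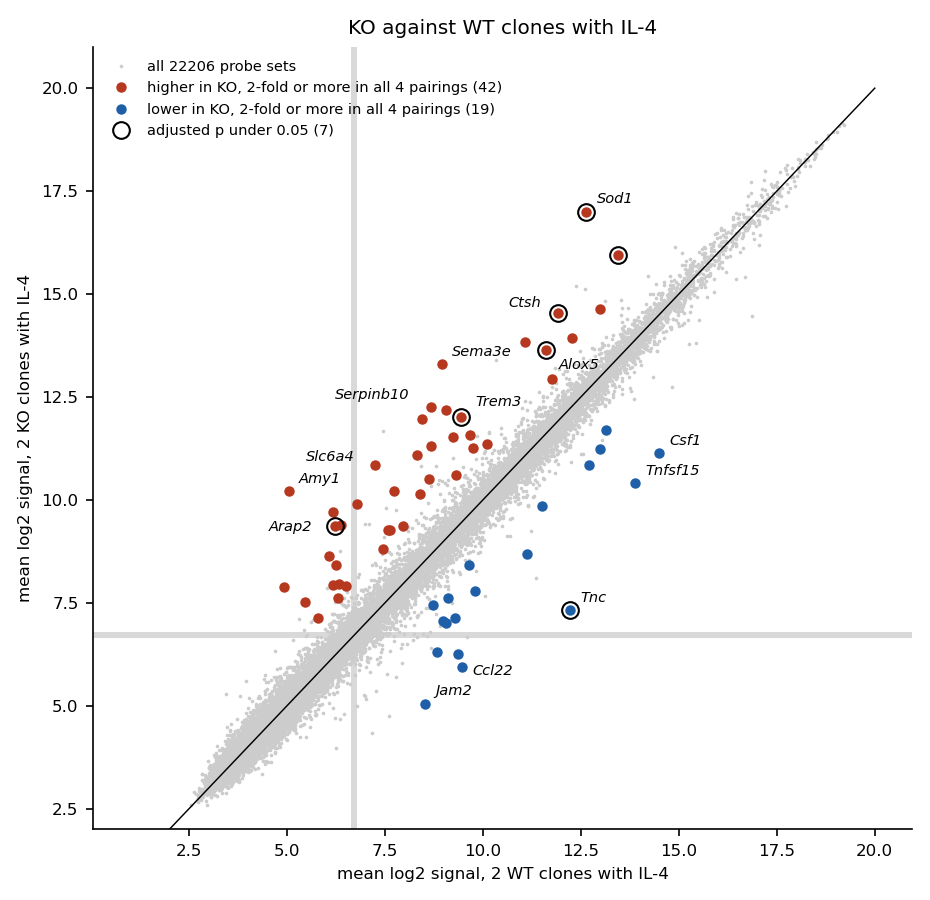
Mean log2 signal of the 2 KO clones (vertical) against that of the 2 WT clones (horizontal) with IL-4, for all 22206 probe sets. Coloured points are the 42 higher and 19 lower probe sets that were at least 2-fold apart in every pairing, rings mark the 7 with an adjusted p under 0.05, the grey bands are the background of the arrays and the line marks equal signal. Sod1 lies at 12.63 in WT and 17.00 in KO clones, and Tnc at 12.21 and 7.31.

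Sod1 encodes the copper and zinc superoxide dismutase of the cytosol, which turns superoxide into hydrogen peroxide. Its log2 signal with IL-4 was 12.43 and 12.83 in WT1 and WT2 and 17.14 and 16.86 in KO1 and KO2. Both KO clones were thus above both WT clones by at least 4.03, and the clones of a genotype differed by far less. The fold difference was 20.6 (log2 difference 4.37, 95% interval 3.80 to 4.93, adjusted p = 0.0012, limma). Of the other antioxidant genes in a list of 40, 4 were higher and 4 lower in all 4 pairings. The list's median difference was 0.07. Cat, the catalase gene, read 14.03 and 14.51 in the WT clones and 14.52 and 14.87 in the KO clones. Mt2, a metallothionein gene, read 18.38 and 15.35 in WT1 and WT2 and 14.76 and 14.16 in KO1 and KO2, so that WT1 stood apart. Sod1 was the 1 member of this list that passed.

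The 250 bases before the annotated start of Sod1 and of a Tnc transcript are shown because these genes had the lowest adjusted p among named genes in each direction. They are RefSeq sequences of GRCm38.p6 at chr16:90220512-90220761 (plus strand) and chr4:64046937-64047186 (minus strand), and capitals mark TATANA, the letters of a TATA box.
Sod1: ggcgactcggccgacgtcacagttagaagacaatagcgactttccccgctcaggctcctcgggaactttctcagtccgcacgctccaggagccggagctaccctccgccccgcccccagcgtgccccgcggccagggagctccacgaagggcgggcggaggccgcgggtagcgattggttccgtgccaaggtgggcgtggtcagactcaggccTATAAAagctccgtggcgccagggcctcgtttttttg
Tnc: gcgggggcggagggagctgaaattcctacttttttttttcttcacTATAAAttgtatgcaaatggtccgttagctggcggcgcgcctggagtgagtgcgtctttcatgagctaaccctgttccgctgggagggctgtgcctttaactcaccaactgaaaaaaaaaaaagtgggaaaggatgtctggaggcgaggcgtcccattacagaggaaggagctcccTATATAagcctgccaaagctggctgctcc
Sod1 held 1 such match and this Tnc promoter 2. The RefSeq table has another Tnc promoter, which overlaps this one and held 1. Neither held the letters of a Stat6 site (TTC and GAA with 4 bases of any kind between them) in the 300 bases from 250 before to 50 after the start. Of 56 named members, 46 had at least 1 promoter in the RefSeq table. Letters were searched on both strands. The 41 promoters of higher members came from 31 genes and the 19 of lower members from 15, so a gene can count more than once. A Stat6 match was in 3 of 41 promoters of higher members and 2 of 19 of lower members, against 6.95% of all 32851 promoters. TGANTCA, the letters of an AP-1 site, was in 7 of 41 and 0 of 19, against 7.81%. The letters of an NF-kB site (GGG and TTCC with 3 bases of any kind between them) were in 1 of 41 and 1 of 19, against 5.56%, and TATANA in 8 of 41 and 5 of 19, against 24.7%. A match is a description of the letters and not a bound site.

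In leukotriene synthesis Alox5 passed the threshold, and Ltc4s and Mgst2 were above the WT clones in every pairing without passing. Alox5 encodes 5-lipoxygenase, which makes leukotriene A4 from arachidonic acid. It read 11.62 and 11.59 in WT1 and WT2 and 13.78 and 13.49 in KO1 and KO2, with no overlap. The fold difference was 4.09 (log2 difference 2.03, 95% interval 1.53 to 2.53, adjusted p = 0.0423, limma). Ltc4s encodes the synthase that joins glutathione to leukotriene A4 to give leukotriene C4. Its signal was 10.52 and 11.60 in WT1 and WT2 and 13.55 and 14.11 in KO1 and KO2, again with no overlap, but the difference of 2.77 did not pass (adjusted p = 0.171, limma). Mgst2, a microsomal glutathione transferase gene whose product can also make leukotriene C4, read 12.28 and 12.25 in the WT clones and 14.10 and 13.77 in the KO clones (adjusted p = 0.171). Mgst2 is outside the rule for named genes and was chosen after its values were seen, and its relative Mgst3 was mixed in direction, with 8.33 and 8.72 in the WT clones and 9.14 and 8.16 in the KO clones.

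No other gene of the eicosanoid list passed. Alox5ap, which encodes the protein that presents arachidonic acid to 5-lipoxygenase, overlapped between the genotypes at 13.97 to 14.81. Lta4h, whose product turns leukotriene A4 into leukotriene B4, lay within 8.17 to 8.25 in all 4 clones. Pla2g5, a secreted phospholipase A2 gene, read 7.00 and 8.54 in WT1 and WT2 and 10.61 and 8.90 in KO1 and KO2. Ptgs2, the inducible cyclooxygenase gene of prostaglandin synthesis, read 15.99 and 17.36 in the WT clones and 15.14 and 15.67 in the KO clones. In a list of 31 eicosanoid genes, 8 were higher and 7 lower in all 4 pairings, Alox5 and Ltc4s were at least 2-fold higher in each, and the median difference was 0.11.

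Among cathepsins and their inhibitors the 2 genes at least 2-fold apart in every pairing were both higher in KO clones. Ctsh encodes cathepsin H, a lysosomal cysteine protease that trims the amino ends of proteins. It read 11.91 and 11.93 in WT1 and WT2 and 14.51 and 14.55 in KO1 and KO2. The clones of each genotype differed by less than 0.1 and the genotypes by a fold of 6.10 (log2 difference 2.61, 95% interval 1.94 to 3.27, adjusted p = 0.0423, limma). Cst7 encodes cystatin F, an inhibitor of cathepsins in immune cells. Its signal was 12.53 and 13.44 in WT1 and WT2 and 14.64 and 14.61 in KO1 and KO2, and it did not pass (log2 difference 1.64, adjusted p = 0.547). Lgmn, the legumain gene of lysosomal protein processing, read 16.79 and 16.73 against 17.31 and 17.46. Of 22 genes in the list 8 were higher and 3 lower in all 4 pairings, with a median of 0.16. The abundant Ctsb, the cathepsin B gene, was within 18.21 to 18.51.

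Of the myeloid receptor genes that pair with activating adaptors or bind sialic acids, Trem3 passed as higher in KO clones. It encodes a receptor of the Trem family and read 9.80 and 9.07 in WT1 and WT2 and 11.88 and 12.16 in KO1 and KO2, and both KO clones exceeded both WT clones by at least 2.08. The log2 difference was 2.58 (95% interval 1.93 to 3.24, adjusted p = 0.0423, limma). Siglec1, the sialoadhesin gene of macrophages, read 7.06 and 8.39 in WT1 and WT2 and 10.05 and 10.37 in KO1 and KO2. The difference of 2.48 did not pass, and the WT clones were more than 2-fold apart. Of 45 such genes 12 were higher and 4 lower in all 4 pairings, with a median of 0.11. Treml2 read 7.34 and 7.87 against 8.53 and 8.95. Trem1, Treml4 and B430306N03Rik, of chromosome 17 like Trem3, were also higher in all 4 pairings, by as little as 0.15, 0.04 and 1.12. Treml4 exceeded background in KO2 alone, at 6.76. Trem2, of the same chromosome, overlapped between 14.42 and 15.23, as did Tyrobp, the gene of the adaptor DAP12, between 14.68 and 14.97. Pilrb1 and Pilrb2, activating paired receptor genes chosen here after their values were seen, were among the 42 higher probe sets. Pilrb1 was below background in both WT clones (5.04 and 5.86) and at least 1.74-fold higher in KO clones, and Pilrb2 was below it in WT1 alone (log2 difference 3.00). Pilrb1, Pilrb2 and Pilra are close relatives, and their probes may share signal, as may those of Trem genes.

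Arap2, which encodes a GTPase-activating protein for the small GTPase Arf6, was above background in KO clones alone. It read 6.35 and 6.10 in WT1 and WT2 and 9.83 and 8.88 in KO1 and KO2, with the WT arrays below backgrounds of 6.72 and 6.70. Its fold difference was therefore at least 6.25, the mean of the KO clones against the background of the WT arrays (adjusted p = 0.0354, limma). Of 27 genes of Arf GTPase-activating proteins 5 were higher and 4 lower in all 4 pairings, with a median of −0.03. Slc6a4, the serotonin transporter gene, read 7.63 and 6.84 in WT1 and WT2 and 11.32 and 10.37 in KO1 and KO2. Slc6a4 was 12.2-fold higher, with WT2 close to its background of 6.70, and just missed the threshold (log2 difference 3.61, adjusted p = 0.0634, limma). With all clones kept, its adjusted p in limma ran from 0.00275 (the replicate number as a block) to 0.226 (only the 4 IL-4 arrays). Without KO1 the difference was 3.14. On the arrays without IL-4 Slc6a4 passed (adjusted p = 0.046, limma), at least 13.4-fold higher, with both WT clones below background. Of 31 genes of its transporter family and of monoamine handling 3 were higher and 5 lower in all 4 pairings. The unnamed probe set that passed read 13.66 and 13.22 in WT1 and WT2 and 16.08 and 15.81 in KO1 and KO2 (log2 difference 2.50, adjusted p = 0.0218, limma).

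Several other genes had large differences that did not pass. Sema3e, a secreted guidance cue that binds plexin D1, read 8.36 and 9.53 in WT1 and WT2 and 13.57 and 13.03 in KO1 and KO2. This was 20.5-fold, with an adjusted p of 0.263 (limma). Amy1, an amylase gene with near-identical copies, was below background in both WT clones (5.00 and 5.07) and read 12.04 in KO1 and 8.38 in KO2. It was at least 11.3-fold higher, the KO clones were far apart, and without KO2 it was the 1 probe set that passed. Serpinb10, a serine protease inhibitor gene of myeloid cells, read 9.36 and 7.99 against 12.17 and 12.34 (adjusted p = 0.142). The remaining genes named by rank were Scel (a gene of the cornified envelope), Nxf7 (of an RNA export family), Fah (the last enzyme of tyrosine breakdown) and Car12 (a membrane carbonic anhydrase), with log2 differences of 2.62, 2.30, 2.79 and 3.52. Car12 read 4.68 in WT1 and 7.67 in WT2. Scel, higher in KO clones, lies on chromosome 14, whose median difference was −0.36. The part of that shift in the value of Scel was not tested. Aif1, Ifi44l, Loxl3, Mgst2, Pilrb1 and Pilrb2 are described with their groups. The other 19 higher members comprise 4 unnamed probe sets, with log2 differences of 1.69 to 3.51, and 15 genes, with 1.20 for Ptms to 3.13 for Abcd2. Abcd2 encodes a peroxisomal transporter of very long chain fatty acids. Rab7b and Rin3, genes of a late endosome GTPase and of an activator of early endosome GTPases, were among the 15 with log2 differences of 1.27 and 1.43, as was Sema4d, a semaphorin gene of immune cells, with 1.51. Values in all 4 pairings are in the plot of the 61 probe sets by pairing.

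**Figure D2:**
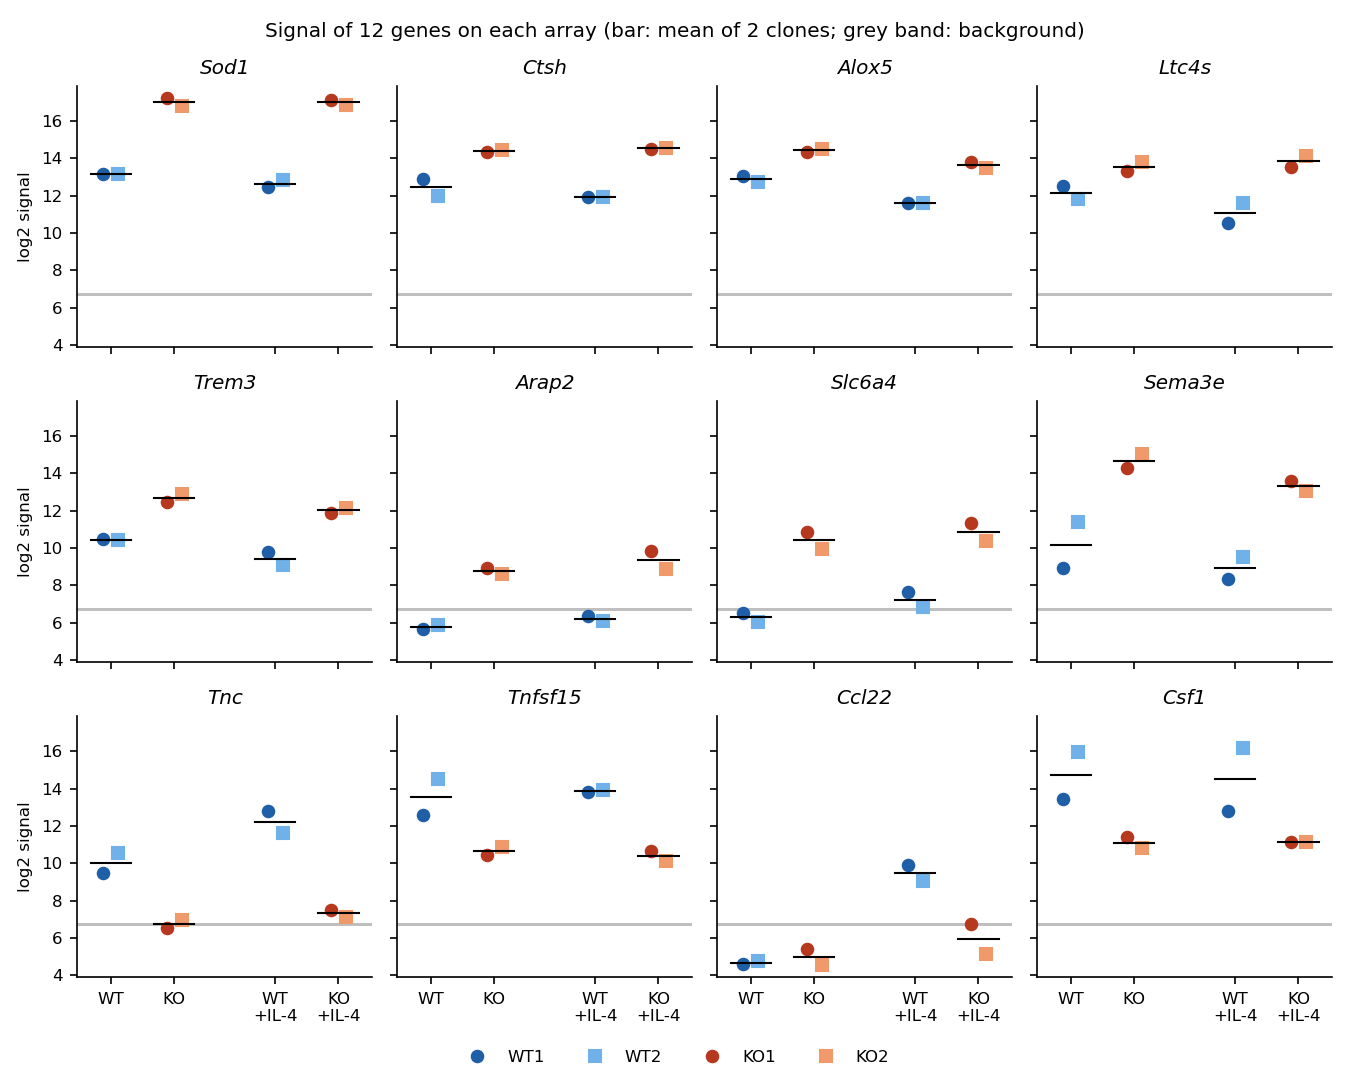
Log2 signal of 12 genes on each of the 8 arrays, without IL-4 on the left and with IL-4 on the right of each panel. Each symbol is 1 clone, bars are the means of the 2 clones of a genotype and the grey band is the background. Sod1 lies at 16.81 to 17.23 in KO clones and 12.43 to 13.17 in WT clones, and Ccl22 is above 9 in WT clones with IL-4 alone.

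Among the genes lower in KO clones, Tnc passed the threshold. It encodes tenascin C, a large matrix glycoprotein of inflamed and healing tissue. Its signal was 12.78 and 11.64 in WT1 and WT2 and 7.52 and 7.11 in KO1 and KO2, so that the KO clones were just above background. The fold difference was 29.8 (log2 difference −4.90, 95% interval −5.93 to −3.87, adjusted p = 0.0218, limma). Tnfsf15, which encodes the TNF family cytokine TL1A, lies on chromosome 4 with Tnfsf8 between it and Tnc. It read 13.81 and 13.93 in WT1 and WT2 and 10.68 and 10.12 in KO1 and KO2, a difference of −3.47 with no overlap that did not pass (adjusted p = 0.171). Tnfsf8 was below background in all 4 clones, at 3.93 to 4.19.

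No other gene of the matrix list passed. Timp2, an inhibitor of matrix metalloproteinases, read 9.19 and 8.45 in the WT clones, 5.46 in KO1, below background, and 7.13 in KO2. Plod2, the lysyl hydroxylase that prepares collagen for crosslinks, read 12.67 and 13.32 against 11.03 and 11.42 (log2 difference −1.77, adjusted p = 0.171). Of 66 genes of matrix proteins, proteases and integrins 14 were higher and 10 lower in all 4 pairings, with a median of 0.02. Itgax was among the lower ones with its high value in WT1 alone. Loxl3, a lysyl oxidase family gene and one of the 42 higher probe sets, was chosen after its values were seen. It was below background in both WT clones and read 8.05 and 7.84 in the KO clones.

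Several of the lower genes encode secreted factors. Ccl22, a chemokine gene induced by IL-4 that draws T helper and regulatory T cells, read 9.90 and 9.03 in WT1 and WT2 and 6.75 and 5.13 in KO1 and KO2. The KO2 array was below its background of 6.73 and KO1 at the edge of its own, and the difference of −3.52 did not pass (adjusted p = 0.171, limma). Csf1, the macrophage colony-stimulating factor gene, was 11.14 in both KO clones, 12.82 in WT1 and 16.17 in WT2. The WT clones were thus as far apart as the genotypes, whose log2 difference was −3.35 (adjusted p = 1). Il1b, the interleukin-1 beta gene, read 8.77 and 9.36 against 7.62 and 6.38, and Tfpi, the tissue factor pathway inhibitor gene, 9.41 and 9.16 against 8.12 and 6.15. Both were below the background of 6.73 in KO2. Hbegf, a ligand of the EGF receptor chosen after its values were seen, read 9.92 and 12.32 in WT1 and WT2 and 8.91 and 8.44 in KO1 and KO2. None of these passed.

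Cell-surface and signalling genes were also among the lower ones, and none passed. Fzd7, a Wnt receptor gene, read 8.81 and 9.17 against 7.34 and 6.76 (log2 difference −1.94, adjusted p = 0.13, limma). Jam2, a junction adhesion gene, read 9.59 and 7.44 in WT1 and WT2 and 5.20 and 4.90 in KO1 and KO2, and Plxdc2, of a transmembrane plexin-domain protein, 10.69, 8.03, 6.39 and 6.14 in the same order. Both were below background in the KO clones, and the WT clones were over 2 apart in each. Jund, an AP-1 subunit gene, read 12.39 and 13.02 against 11.00 and 10.69. Mapk8, the JNK1 gene, lies on chromosome 14 and read 8.99 and 8.46 against 7.45 and 7.43. The Mapk8 differences were −1.55 and −1.56 from WT1 and −1.02 and −1.03 from WT2. The chromosome's medians were −0.63 and −0.69 from WT1 and −0.04 and −0.09 from WT2. The part of that shift in the value of Mapk8 was not tested. The other lower members were Chpf, a chondroitin synthesis gene, Aamp, Ralgds, H1f2 and 3830403N18Rik, with log2 differences of −2.02 to −1.21.

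**Figure D3:**
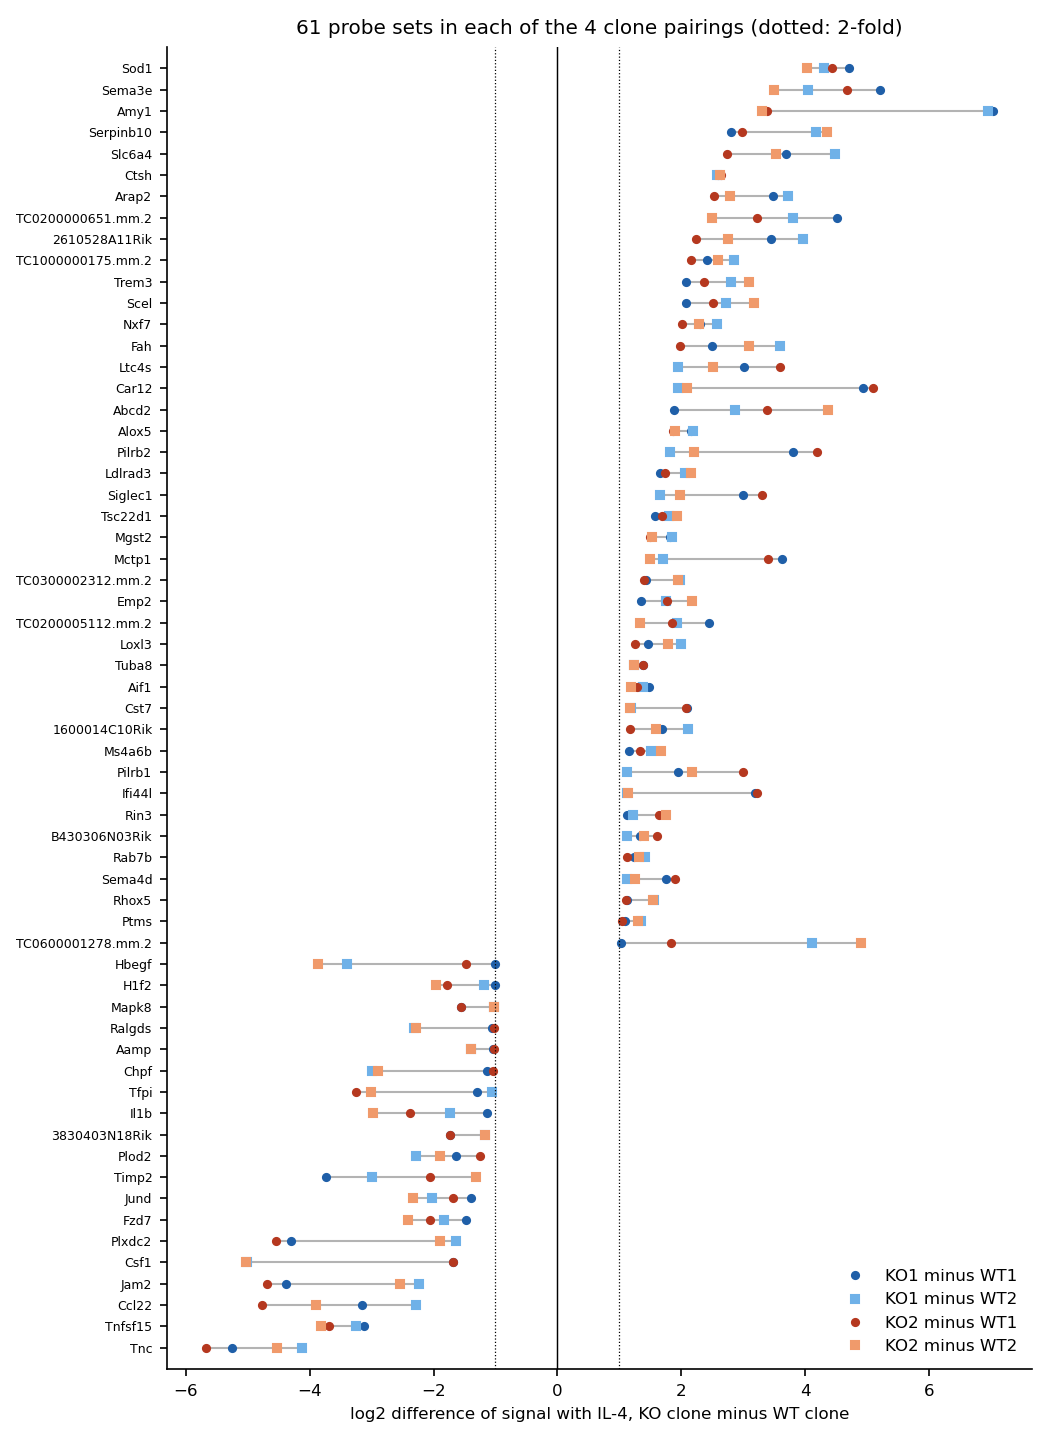
Log2 difference of each KO clone from each WT clone with IL-4, for the 61 probe sets that were at least 2-fold apart in every pairing. Each symbol is 1 pairing, grey lines span the 4 pairings, and dotted lines mark a 2-fold difference. Ctsh has nearly the same value in all 4 pairings, while Amy1, Csf1 and Car12 split by clone.

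Spread between clones differed from gene to gene. Over the 61 probe sets the WT clones were farther apart than the KO clones in 37, with median gaps of 0.57 and 0.30. They were more than 2-fold apart in 17 and the KO clones in 9. Beside Csf1, Car12, Jam2, Plxdc2 and Hbegf, the interferon-stimulated gene Ifi44l split the WT clones, with 5.21 and 7.29 in WT1 and WT2 and 8.41 and 8.43 in KO1 and KO2. Of the 42 higher probe sets the WT genotype was above background on both arrays in 28, on 1 in 5 and on neither in 9. Of the 19 lower ones the KO genotype was so in 13, 4 and 2.

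Gene lists for the functions of Gpr137b and IL-4 held few genes that stood apart. Of 38 genes of the Rag GTPases, Ragulator and mTORC1, 7 were higher and 6 lower in all 4 pairings and none was 2-fold apart in each. The widest was Rragb, which encodes a Rag GTPase, with 6.61 and 6.87 in the WT clones and 7.55 and 7.26 in the KO clones, close to background. Of 40 lysosomal membrane proteins and hydrolases 8 were higher and 8 lower, with a median of −0.05. Atp6v0d2, a subunit gene of the lysosomal proton pump, read 16.39 and 16.55 against 15.40 and 15.35, just under 2-fold in its closest pairing (log2 difference −1.10, adjusted p = 0.714, limma). The osteoclast list, which shares Atp6v0d2, had 1 higher and 5 lower of 25.

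Of 44 genes of the IL-4 response and M2 state 3 were higher and 12 lower in all 4 pairings, against 17.9% and 15.3% of all probe sets, and the median was −0.10. None passed. Ccl22 was the 1 member at least 2-fold apart in each pairing. Egr2, a transcription factor gene induced by IL-4, read 12.31 and 13.70 against 11.38 and 11.24. Cd36, a scavenger receptor gene, read 14.02 and 8.67 in WT1 and WT2 and 7.88 and 8.30 in KO1 and KO2, so that WT1 alone stood apart. Arg1, which encodes arginase, exceeded background in 1 clone alone, WT1, at 7.56.

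The counts in this paragraph are to be read against 17.9% of all probe sets higher and 15.3% lower in all 4 pairings. Cell cycle genes were higher in 12 and lower in 1 of 42, and 19 were above background on all 4 arrays. Their median difference of 0.49 varied with the clones of both genotypes. It was −0.09 for KO1 and 0.34 for KO2 against WT1, and 0.63 and 1.06 against WT2. Ube2c, a mitotic ubiquitin-conjugating enzyme gene, read 8.37 and 5.81 in WT1 and WT2 and 9.16 and 9.68 in KO1 and KO2. Of 31 genes of cholesterol and fatty acid metabolism 14 were higher and 0 lower in all 4 pairings, with a median of 0.25 and none past 2-fold in each. Nsdhl, a sterol synthesis gene, read 12.88 and 12.76 against 13.51 and 13.80, and did not pass (adjusted p = 0.994, limma). By pairing the median of this list was 0.08, 0.46, 0.00 and 0.35, again lower against WT1 than against WT2. Interferon-stimulated genes had 5 higher and 4 lower of 47, inflammatory genes 8 and 8 of 45, chemokines and their receptors 4 and 8 of 40, and cytokine and growth factor receptors 11 and 6 of 53. Il6ra, the interleukin-6 receptor gene, stood farthest apart in its closest pairing in the last list (log2 difference 1.09, not passed). Macrophage identity genes had 10 and 6 of 27. Aif1, the Iba1 gene, was the 1 of these 2-fold apart in each pairing, with 5.75 and 5.84 in the WT clones, below background, and 7.23 and 7.03 in the KO clones.

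**Figure D4:**
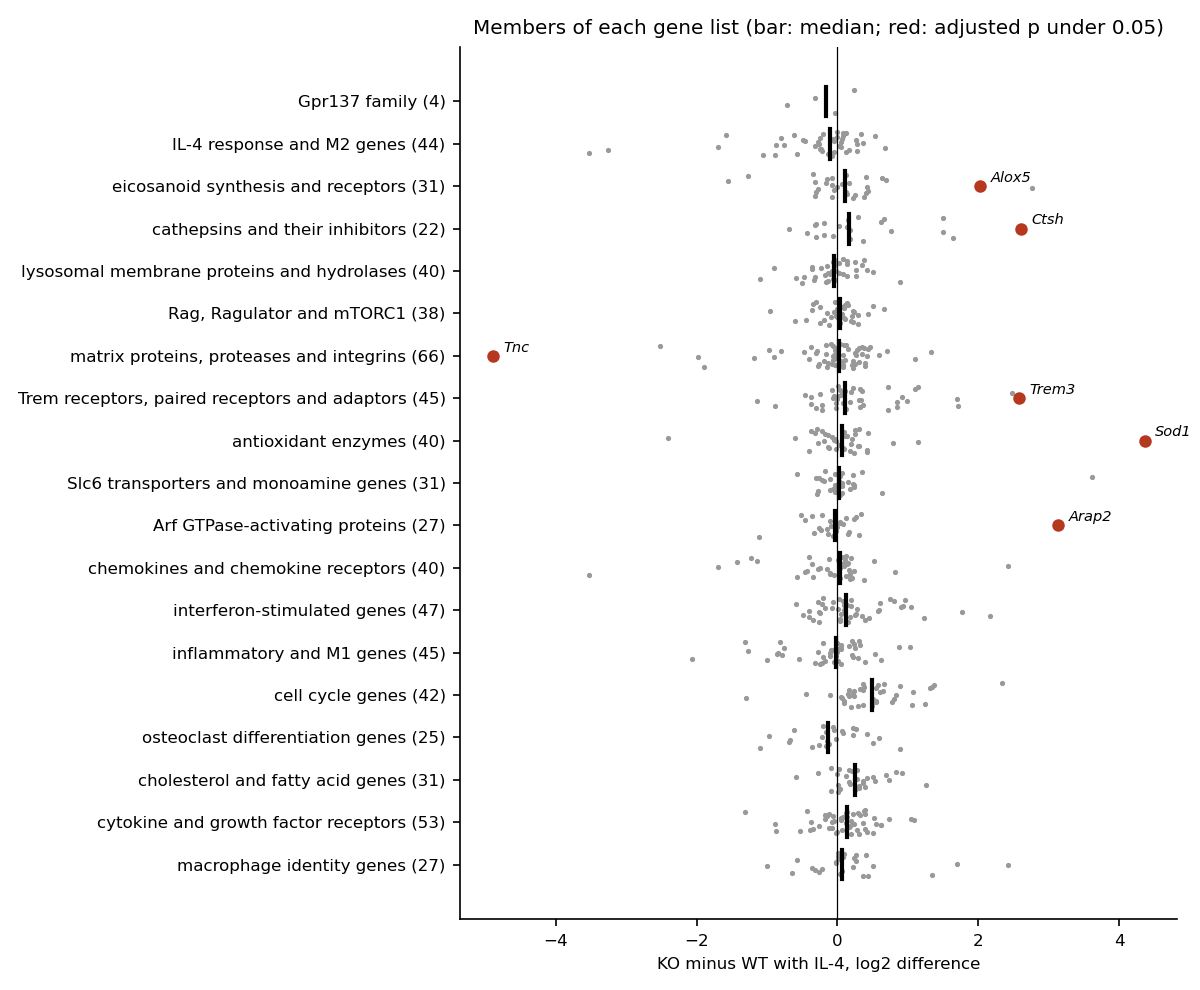
KO minus WT log2 difference with IL-4 for the measured members of each gene list, whose number is in brackets. Each point is 1 gene, black bars are list medians and red points have an adjusted p under 0.05. Medians lie between −0.17 and 0.49, and the 6 called genes lie far from those of their lists.

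The arrays without IL-4 gave the same clones on other arrays, which the choice of the 61 probe sets did not use. Most of the differences were there too. Of the 42 higher probe sets 38 were higher in all 4 pairings without IL-4, where 14.1% of all probe sets were, and 21 were at least 2-fold higher in each, where 0.153% were. Of the 19 lower ones 16 were lower in all 4, against 16.3%, and 9 at least 2-fold lower in each, against 0.0946%. None was opposite in all 4. The median difference was 2.23 with and 2.00 without IL-4 in the higher probe sets, and −2.06 and −1.46 in the lower ones. With genes below background at their bounds the medians were 2.10 and 1.92, and −2.02 and −1.45 with Ccl22, which had no fold without IL-4, set to 0. Since both sets of arrays come from the same 4 clones, they do not tell a genotype from a clone.

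Without IL-4 Sod1 read 13.17 and 13.16 in WT1 and WT2 and 17.23 and 16.81 in KO1 and KO2. Ctsh read 12.89, 11.99, 14.35 and 14.46 in the same order, and Alox5 13.07, 12.75, 14.34 and 14.49. Neither overlapped, and the Ctsh difference was 1.97. In limma 4 probe sets passed without IL-4, all higher in KO clones (0.0180%), and 3 of these passed with IL-4 too. The other was Slc6a4. Tnc without IL-4 read 9.46 and 10.56 in the WT clones and 6.55 and 6.95 in the KO clones. The 7 probe sets that turned mixed were Aif1, B430306N03Rik, Ldlrad3 and an unnamed one among the higher, and Ccl22, H1f2 (a linker histone gene) and Hbegf among the lower.

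**Figure D5:**
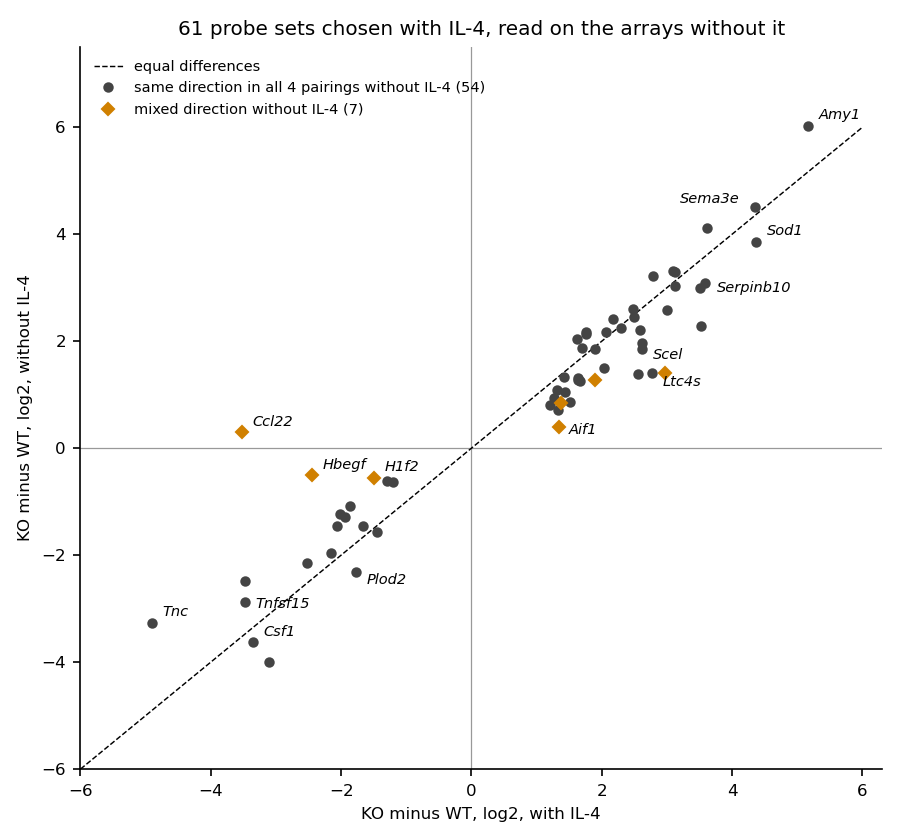
KO minus WT log2 difference without IL-4 (vertical) against that with IL-4 (horizontal) for the 61 probe sets chosen on the IL-4 arrays. The dashed line marks equal differences, and diamonds mark the 7 probe sets that were mixed in direction without IL-4. Ccl22 lies at −3.52 with and 0.30 without IL-4.

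Whether a genotype difference depended on IL-4 was tested as the difference with IL-4 less that without. No probe set passed (0 called by limma, lowest adjusted p = 1), and 338 (1.52%) had an unadjusted p under 0.05. This fit had no block, so it did not use that each clone gave 1 array with and 1 without IL-4. When the fit let both arrays from 1 clone be alike, through a random replicate block, 0 were called for this difference as well. The 61 probe sets were chosen on the IL-4 arrays, which form 1 side of this difference, so their values are a description. Those with the lowest unadjusted p among the 61 were Ccl22, with a difference of differences of −3.82, Tnc with −1.63 and Ltc4s with 1.37. The value of Ccl22 rests on dim signals, since no clone exceeded background without IL-4. For Sod1 the value was 0.51 and for Alox5 0.53, and neither a dependence nor its absence was shown.

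The same genes were also read as the difference between the arrays with and without IL-4 of each clone. This shares the IL-4 arrays with the choice of the 61 and is a description. Of the 42 higher probe sets 20 were lower with IL-4 than without it in all 4 clones, against 8.44% of all probe sets, and 6 were higher, against 7.93%. Alox5 was lower by 1.45 and 1.16 in WT1 and WT2 and 0.56 and 1.00 in KO1 and KO2. Pilrb2 was lower by 1.79 to 2.44 and Serpinb10 by 1.09 to 2.14. Of the 19 lower probe sets 8 were higher with IL-4 in all 4 clones and 1 was lower. Tnc was higher with IL-4 by 3.32 and 1.08 in WT1 and WT2 and 0.97 and 0.16 in KO1 and KO2, and Hbegf by 2.76, 2.70, 1.01 and 0.59. For Ralgds, a Ral activator gene chosen after its values were seen, IL-4 arrays were higher by 2.06, 2.66, 2.18 and 2.10, which overlapped between the genotypes. Cst7 was higher with IL-4 by 1.31 to 2.82 in the 4 clones.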

How the data were processed

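SST-RMA, run by the authors in the Transcriptome Analysis Console, made the deposited intensities of the Clariom S arrays, and RMA is named in the submitters' processing notes. The intensities are linear, and their log2 was taken here. SST-RMA stretches the signal scale, so fold sizes depend on it. The table held 28846 rows, of which 6640 were control rows. Of 22206 probe sets tested, 19572 had 1 gene symbol in the platform annotation, 2634 were unnamed here and none had several. The number of arrays limits the precision.

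All 8 arrays entered the fit of KO minus WT (limma 3.58.1, R 4.3.3), which had a mean for each of the 4 groups, no block, 4 residual degrees of freedom and Benjamini-Hochberg adjustment over all probe sets at 0.05. Where the dim genotype was above background on neither array, the fold is a lower bound. Chromosomes, neighbours and promoters came from RefSeq tables of GRCm38.p6. Named genes were the Gpr137 family, called genes, the 12 higher and 12 lower with the largest difference in their closest pairing, and the members of each list at least 2-fold apart in every pairing, or else the widest member. The members and lists were chosen with earlier results of these data known. Whether the clones were cultured more than once is not stated, so p-values measure the spread between clones and arrays. Alternatives were another normalization, a filter on dim probe sets, a trended and robust variance prior, blocks, a fold rule, only the arrays of 1 treatment, and leaving out each clone.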

Additional observations from a re-analysis of the deposited data

How the results depend on the processing

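KO minus WT with IL-4 (7 probe sets called) gave 7 after quantile normalization, 8 with a trended and robust prior, 3 without the dimmest 40% of probe sets (Sod1, Tnc and the unnamed one), 1 with the 4 IL-4 arrays alone (Sod1) and 176 by a fold rule (at least 2-fold, unadjusted p under 0.05). Leaving out 1 clone gave 0 (without KO1) to 143 (without WT1). Without IL-4 (4 called) the counts were 2 after quantile normalization, 1 without the dimmest 40%, 0 with its own 4 arrays alone, 172 by the fold rule and 0 to 100 by leaving out a clone. The difference of the differences (0 called) gave 110 by the fold rule. The 61 probe sets at least 2-fold apart in every pairing became 65 after quantile normalization, and 123 to 484 with 3 clones, where only 2 pairings have to meet the limit.

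Replicate numbers of WT and KO clones share only a number: deviations from the group means correlated at −0.043 without and 0.05 with IL-4. That replicate block gave 5 calls with IL-4, 4 of them among the 7 (without Alox5, Trem3 and Ctsh, with Slc6a4 added) and 5 without IL-4. The clone as a random replicate block gave 8, the 7 and Slc6a4, and 4 without IL-4. Within clones, deviations from the group means without IL-4 and with it had a correlation of 0.354 for WT and 0.161 for KO. The random block put the likeness of 2 arrays from the same clone at a correlation of 0.144. The main fit, which had no block, took the arrays as independent. Of 39 named genes, directions turned for Gpr137b (−1.52 to 0.09 over the clones left out) and Gpr137b-ps (−1.32 to 0.69) without WT2, and for Gpr137 (−0.17 to 0.11) without KO1. The cause of these changes was not tested.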
